A study of Mus musculus with 8 samples.

Results

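Ptprc, Csf1r, Tyrobp, Fcer1g and C1qc are transcripts found in myeloid cells, though not all of them are limited to these cells. Ptprc is one of leukocytes in general. They were measured on Affymetrix arrays of newborn mouse epidermis, taken off the dermis before RNA was extracted. The probe sets analysed were all those to which the authors' deposited table of changed transcripts gives exactly 1 of these 5 symbols. This gave 7 probe sets of the 45101 on the array, 3 for Csf1r and 1 for each of the other genes. The 5 genes stood among 1396 genes that the same table names with a single symbol. One group was 4 arrays of epidermis labelled IR-/-, IGF-1R-/- (dKO), a genotype label for loss of both IR, the receptor for insulin, and IGF-1R, that for IGF-1. The other was 4 arrays of wild-type epidermis, and both groups were C57Bl/6 newborns. The driver of the deletion and the number of animals per array were not given in the sources used here. The labels call the arrays biological replicates, so p-values measure the spread between these arrays.

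Langerhans cells are the resident phagocytes of the epidermis. They are related to macrophages, settle in the skin around birth and take up and present antigen. In the mouse their upkeep depends on the CSF1 receptor and on IL-34, a ligand that keratinocytes make, as well as on TGF-beta signals. The newborn epidermis also holds gamma-delta T cells, which share the leukocyte antigen CD45 with them. In bulk RNA, fewer cells of a type and less RNA per cell cannot be told apart. The label's Langerhans cells could be checked only in part, because of 24 genes on a list of Langerhans and antigen-presentation markers 2 had a name here, Ctss and Cd1d1. Cd207, which encodes langerin, and the class II antigen-presentation genes were not among them. Names came only from the authors' table of changed transcripts. A gene without a name was thus not listed there under a single symbol, and its level was not examined here.

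The selection of the 5 genes fixed their direction. Each had been listed by the authors with a ratio under 1, and they were picked with results of these arrays known. Their values are therefore a description, and their agreement in sign is no support. With limma and Benjamini-Hochberg adjustment over 45032 probe sets, an adjusted p under 0.05 and a lower level in dKO was found for 1.25% of all probe sets, with 0.993% called higher and 2.25% in either direction. Among the 1134 entries of the authors' deposited table with a ratio under 1 the share was 38.7%. In 5.93% of all probe sets every dKO array lay below every control, and in 70.6% of those entries. The targeted receptors were lower in dKO, Insr by a log2 difference of -1.79 and Igf1r by -0.76 in its brightest probe set (limma, adjusted p = 0.00319 and 0.0176). The Igf1r call was lost without dKO replicate 2 or control replicates 1 or 2 (limma adjusted p = 0.0593, 0.0753 and 0.0517), and with arrays centred on Actb and Gapdh (0.0936). Of its other probe sets, 1 ran the other way at 0.88 without passing. Signals are given as deposited, in linear units on arrays that share a trimmed mean of 250.

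All 5 genes were lower in dKO, by 2.97-fold to 4.28-fold in their brightest probe sets, and 6 of the 7 probe sets passed the threshold. Of the 5 genes, 2 passed without control replicate 1 or 3, 5 without dKO replicate 4, and 3 without any other single array. In 6 of 7 every dKO array lay below every control. The median log2 difference of the 5 genes was -1.81, beside -0.07 over all tested probe sets and -0.93 over the authors' entries with a ratio under 1.

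Ptprc encodes CD45, a receptor tyrosine phosphatase that sets the activity of Src family kinases in leukocytes. Its signal was 32, 73.2, 59.4 and 83.2 units in dKO replicates 1 to 4 and 286.9, 274.9, 239.6 and 206.2 units in control replicates 1 to 4. The groups did not overlap, and the highest dKO array stood well under the lowest control. With n = 4 per group, dKO averaged 61.95 ± 22.2 (SD) and controls 251.9 ± 36.5 (SD), a log2 difference of -2.10 (SE 0.27, limma adjusted p = 0.00319).

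Csf1r is the receptor tyrosine kinase for CSF1 and IL-34, on which macrophages and Langerhans cells depend. Its brightest probe set, 1419872_at, read 143.6, 382.1, 172.2 and 489.3 units in dKO replicates 1 to 4 and 1203.6, 1020.4, 1169.7 and 759.7 in controls. The groups did not overlap, and dKO replicates 1 and 3 were the low ones. The log2 difference was -1.97 (SE 0.33, limma adjusted p = 0.0101). Its second probe set, 1419873_s_at, read 67.6, 130.3, 135.2 and 147.5 units in dKO and 299.9, 259.4, 357.1 and 225.7 in controls, again without overlap. This was a log2 difference of -1.29 (SE 0.24, limma adjusted p = 0.0181). The suffix s_at marks a probe set that Affymetrix found to match more than a single transcript.

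The remaining Csf1r probe set gave a smaller difference. In 1423593_a_at the signal was 97.7, 191.5, 104.1 and 147.1 units in dKO and 254.5, 210.0, 279.8 and 171.4 in controls, so that dKO replicate 2 lay above control replicate 4. Its log2 difference of -0.79 (SE 0.23) did not pass (limma adjusted p = 0.113), nor did it under any of the 18 alternatives. The authors' deposited table gives ratios of 0.339, 0.437 and 0.489 for these probe sets in the same order. Which exons they cover was not given in the sources used here.

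**Figure D1:**
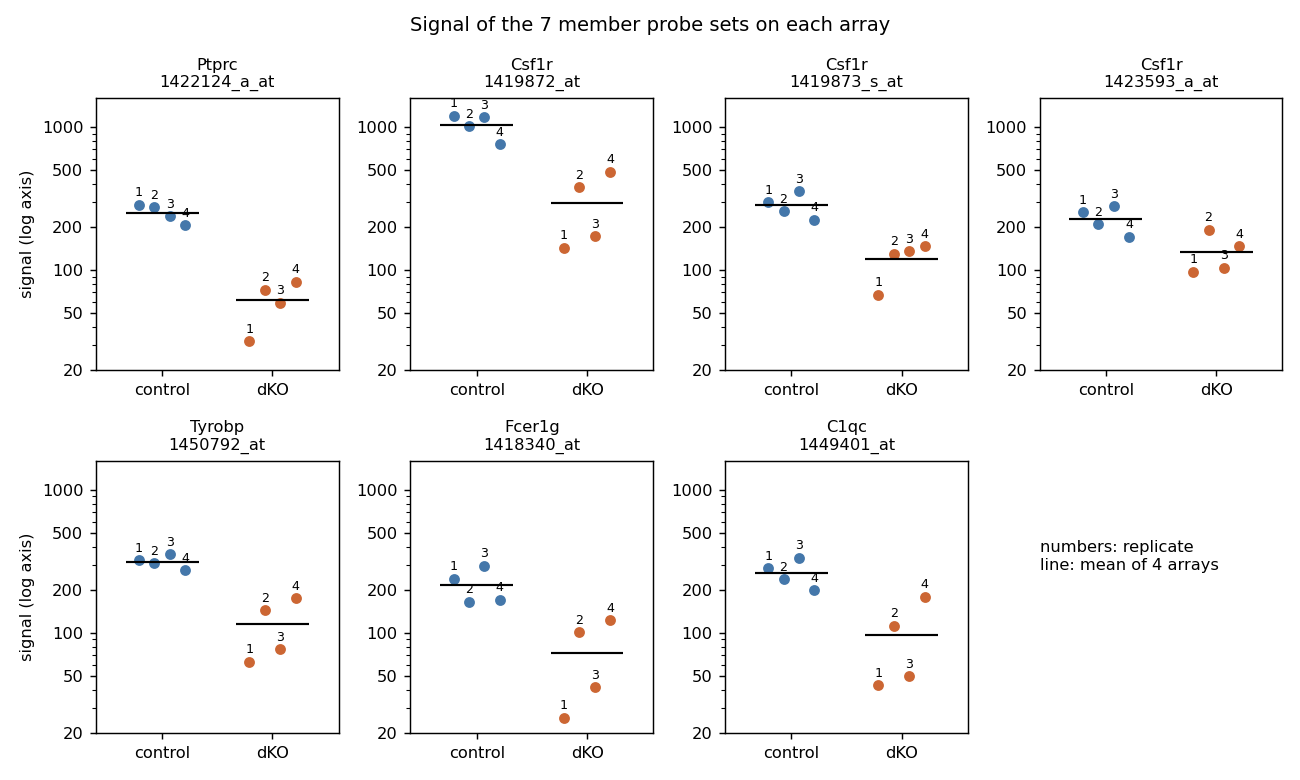
Signal (units, log axis) of the 7 member probe sets on each array, with control in blue, dKO in orange, replicate numbers beside the points and a line at the mean of 4 arrays. In 6 of 7 panels the dKO arrays lie below all controls, and in every panel dKO replicate 1 is the lowest array.

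Tyrobp and Fcer1g encode small membrane adaptors, DAP12 and the common Fc receptor gamma chain. Both carry an activation motif in the cytoplasmic tail through which receptors without a signalling tail of their own reach the kinase Syk. Tyrobp read 63.1, 143.6, 77.3 and 175.0 units in dKO replicates 1 to 4 and 321.4, 305.7, 353.4 and 273.5 in controls. No dKO array reached the lowest control, and controls varied little around their mean of 313.5 ± 33.2 (SD, n = 4). The log2 difference was -1.57 (SE 0.28, limma adjusted p = 0.0143). Leaving out control replicate 1 or 3 ended this call (limma adjusted p = 0.0592 and 0.0562).

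Fcer1g read 25.6, 100.7, 41.8 and 122.6 units in dKO and 240.0, 164.9, 295.0 and 170.5 in controls. The groups did not overlap, but dKO replicate 4 came close to control replicates 2 and 4. The log2 difference was -1.81 (SE 0.43), with a limma adjusted p of 0.0496 just under the threshold. The call held in 6 of 18 alternatives, and among the fits that left out 1 array only without dKO replicate 4. In the other 7 of these fits the adjusted p ran from 0.0532 to 0.154, and with the replicate number as a block it was 0.080.

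C1qc encodes the C chain of C1q, which starts the classical complement pathway and which macrophages make. Its signal was 43.3, 112.2, 49.7 and 178.7 units in dKO and 282.8, 236.3, 334.7 and 199.3 in controls. The groups did not overlap, and dKO replicate 4 lay just under control replicate 4. The log2 difference was -1.67 (SE 0.38, limma adjusted p = 0.0443). This call also held in 6 of 18 alternatives and, with 1 array left out, only without dKO replicate 4, with limma adjusted p of 0.0548 to 0.138 in the other 7 fits and 0.0725 with the replicate block.

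The C1q protein is built from 3 chains, whose genes lie next to each other on mouse chromosome 4 in RefSeq's GRCm38.p6 annotation. All 3 were named, and the other chains showed differences of similar size without passing. C1qa read 67.6, 248.5, 65.9 and 321.5 units in dKO and 522.8, 387.3, 553.9 and 298.8 in controls, a log2 difference of -1.64 (SE 0.46, limma adjusted p = 0.0964). C1qb, in its brightest probe set, read 68.2, 222.3, 109.5 and 326.1 units in dKO and 517.3, 390.3, 591.3 and 313.0 in controls, a log2 difference of -1.53 (SE 0.40, limma adjusted p = 0.0736). In both genes dKO replicate 4 lay above control replicate 4, and this single pair made the groups overlap. The other 2 C1qb probe sets, without overlap, had differences of -1.55 and -1.06 (limma adjusted p = 0.0672 and 0.0524).

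Promoter sequence is shown as a description for the 3 members that RefSeq's promoter table holds and that may be printed here. Each line gives the 250 bases before an annotated start (GRCm38.p6, minus strand, read 5′ to 3′). For Ptprc it is the more upstream of its starts. Capitals mark GAGGAA or its reverse complement TTCCTC, the purine-rich core that the myeloid factor PU.1 is known to bind.
Ptprc, chr1:138175306-138175555: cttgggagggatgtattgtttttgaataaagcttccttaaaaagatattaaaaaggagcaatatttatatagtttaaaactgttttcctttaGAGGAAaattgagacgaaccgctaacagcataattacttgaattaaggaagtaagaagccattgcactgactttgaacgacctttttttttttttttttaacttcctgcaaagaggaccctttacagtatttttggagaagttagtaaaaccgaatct
Fcer1g, chr1:171234350-171234599: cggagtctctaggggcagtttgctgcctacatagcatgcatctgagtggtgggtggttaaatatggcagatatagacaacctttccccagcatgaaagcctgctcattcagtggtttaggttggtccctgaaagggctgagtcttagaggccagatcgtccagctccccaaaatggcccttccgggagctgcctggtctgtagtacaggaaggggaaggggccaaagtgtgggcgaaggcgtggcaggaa
C1qc, chr4:136892915-136893164: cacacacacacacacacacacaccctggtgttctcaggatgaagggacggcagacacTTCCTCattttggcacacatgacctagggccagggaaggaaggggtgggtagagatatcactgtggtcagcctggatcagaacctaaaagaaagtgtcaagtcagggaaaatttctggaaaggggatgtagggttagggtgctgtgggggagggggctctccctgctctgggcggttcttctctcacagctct
The Ptprc window held 1 match, starting 158 bases before the start, and the C1qc window 1 on the opposite strand, starting 193 bases before it. No match lay in the Fcer1g window or in that of the second Ptprc start. Over 32851 windows of the same length, 23.3% held the motif on either strand, so a match is a description of these letters and no more.

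The size of the change was compared between members within each array, on the log2 ratio of their brightest probe sets. Of 10 pairs, 0 passed an exact two-sided permutation test after Benjamini-Hochberg adjustment, and the lowest adjusted p was 0.286. Before adjustment only the ratio of Csf1r over C1qc reached 0.0286, the smallest exact p that 4 against 4 arrays allow. A pair alone at this floor has an exact permutation adjusted p of 0.286 over 10 pairs. The adjusted test could therefore hardly give a call. On the log2 scale that ratio averaged 1.69 ± 0.16 over the dKO arrays and 1.98 ± 0.14 over the controls (SD, n = 4 per group), a difference of -0.30 (SE 0.11). The largest difference was that of Ptprc over Tyrobp, at -0.53 (SE 0.19, exact permutation adjusted p = 0.286), and the smallest that of Tyrobp over C1qc, at 0.10 (SE 0.17). These tests do not show that the 5 genes changed by the same amount.

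The dKO arrays differed among themselves in the same order for most members. Replicate 1 was the lowest dKO array in 7 of 7 member probe sets, which was so for 33.4% of all tested probe sets and 54.7% of the authors' entries with a ratio under 1. Replicates 1 and 3 both lay below 2 and 4 in 6 of 7 member probe sets, beside 21.7% of all probe sets and 39.8% of those entries. The exception was the second Csf1r probe set, in which replicate 3 lay above replicate 2. Averaged over the 5 genes and set against the control mean, dKO replicates 1 to 4 stood at -2.74, -1.32, -2.27 and -0.96 on the log2 scale. The controls stood at 0.16, -0.08, 0.23 and -0.32.

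Other measures of these arrays also differed among the dKO replicates. The median signal was 40.7, 45.3, 45.8 and 47.4 units in dKO replicates 1 to 4 and 46.4, 46.3, 50.9 and 51.7 in controls 1 to 4. On the log2 scale, the 3 prime over 5 prime signal of the Actb and Gapdh controls was -0.039, 0.015, 0.035 and 0.054 in dKO replicates 1 to 4 and -0.0045 to 0.25 in controls. Both were lowest in dKO replicate 1 among the dKO arrays and rose in order to dKO replicate 4. The named genes of a neutrophil list were S100a8, S100a9 and Lcn2, which stressed keratinocytes also make. They summed to 22861, 9572, 21822 and 464 units in dKO replicates 1 to 4. In controls 1 to 4 the sums were 62.8, 73.8, 48.9 and 598.6, so dKO replicate 4 lay within the control range. The part of these measures in the members' levels was not tested. Without dKO replicate 1 the median log2 difference of the 5 genes was -1.40 and 3 passed. Without both arrays numbered 4 it was -2.25 and 5 passed. Named erythroid genes summed to 235.9 to 580.3 units in dKO and 67.1 to 125.4 in controls, and named fibroblast genes to 2441 to 3991 and 1516 to 2147. Of the 4 named fibroblast genes, 3 had a higher and 1 a lower mean log2 signal in dKO, and only Sparc passed. No gene of the mast cell or endothelial lists was named.

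Besides C1qc, 14 of 51 symbols on a list of macrophage and complement genes had a name, 13 of them with a lower and 1 with a higher mean in dKO. None passed the adjusted threshold, and 13 had an unadjusted p under 0.05 with a lower level in dKO. The authors' table admits only entries with an unadjusted p under 0.05 in their own analysis, so this count was nearly fixed by the naming. It compares with 94.6% of its entries with a ratio under 1 and 9.28% of all probe sets. Their median log2 difference was -1.35. Mpeg1, a pore-forming protein of macrophages, came closest, at 23.5, 65.1, 65.1 and 88.3 units in dKO and 197.9, 185.9, 259.8 and 93.7 in controls (log2 difference -1.67, SE 0.40, limma adjusted p = 0.0537). Its groups did not overlap, since dKO replicate 4 stayed just under control replicate 4. Of the 13 genes with a lower mean, 7 had every dKO array below every control, beside 70.6% of the authors' entries with a ratio under 1. The count of passing genes was 5 without dKO replicate 4 and 7 without both arrays numbered 4. It was 2 without dKO replicate 1 or without control replicate 4, and 0 without any other array.

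The remaining macrophage genes fell into a few roles. Cx3cr1, the fractalkine receptor, read 17.9, 96.3, 86.0 and 89.6 units in dKO and 196.2, 177.1, 293.7 and 158.3 in controls (log2 difference -1.73, limma adjusted p = 0.0786). The phagocyte oxidase subunits Cybb, Ncf1 and Ncf4 had differences of -1.74, -0.96 and -0.79 in their brightest probe sets. For Emr1 (current symbol Adgre1, the F4/80 antigen) it was -0.96, for the phagocytic receptor kinase Mertk -0.70 and for Aif1 -2.36 (SE 0.96), where dKO replicate 1 read 1.0 units. C3ar1, the receptor for complement fragment C3a, had a difference of -1.17 in its brightest probe set, while its 2 dimmer ones passed at -2.43 and -2.48 (limma adjusted p = 0.0308 and 0.0471). Lyve1, which lymphatic endothelium and some macrophages express, ran the other way at 1.82 (SE 0.54, limma adjusted p = 0.116), from 3.9 to 12.0 units in controls to 22.5 to 38.3 in dKO.

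**Figure D2:**
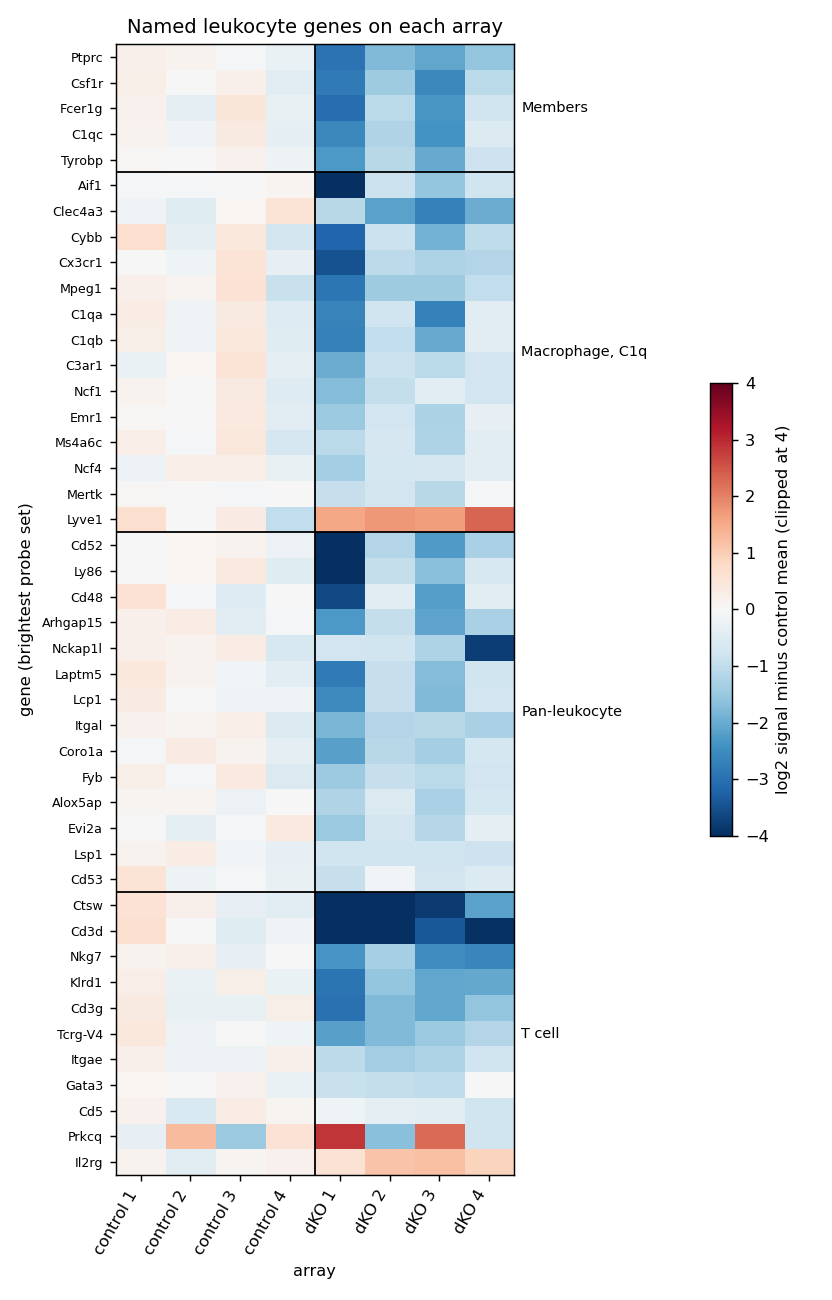
Log2 signal minus the control mean for the 5 members and the named genes of 3 further leukocyte lists (rows, brightest probe set) on each of the 8 arrays (columns), with colours clipped at 4 in either direction. Among the members dKO replicates 1 and 3 are the darkest blue columns, and Lyve1, Prkcq and Il2rg have higher means in dKO.

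Among the ligands and factors on which Csf1r-dependent cells rely, 3 genes besides Csf1r were named. Il34, the keratinocyte ligand of the CSF1 receptor, fell by 0.80 on the log2 scale (SE 0.15, limma adjusted p = 0.0155). It read 220.6, 288.0, 256.7 and 265.7 units in dKO and 482.0, 412.0, 537.5 and 371.0 in controls, with no overlap. This call was lost when dKO replicate 3, control 1 or control 3 was left out (limma adjusted p = 0.0505, 0.0707 and 0.0533). Tgfbr2, a receptor subunit for TGF-beta that many cell types express, rose by 1.25 (SE 0.16, limma adjusted p = 0.00299), from 689.4 to 855.1 units in controls to 1335 to 2389 in dKO. Its second probe set rose by 1.33. Runx3, a transcription factor that Langerhans cells need, had a difference of -0.72 (SE 0.31, limma adjusted p = 0.297). Csf1, Spi1 (PU.1) and Irf8 had no name here.

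Of the antigen-presentation list, Ctss passed. This gene encodes cathepsin S, the protease that processes the invariant chain of class II molecules. It read 205.9, 338.5, 186.7 and 364.9 units in dKO and 894.2, 581.9, 623.6 and 674.9 in controls. It fell by 1.38 (SE 0.22, limma adjusted p = 0.00765) with no overlap between groups, and the call held without any single array. Cd1d1, which presents lipids, had a difference of -0.92 (SE 0.26, limma adjusted p = 0.0981).

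Partners of the adaptors Tyrobp and Fcer1g were few among the named genes. Fcgr3, an Fc receptor that signals through the gamma chain, read 67.2, 131.6, 83.3 and 103.9 units in dKO and 181.5, 149.6, 181.9 and 125.1 in controls. Its log2 difference was -0.75 (SE 0.23, limma adjusted p = 0.126), and dKO replicate 2 lay above control replicate 4. Blnk, an adaptor downstream of Syk in B cells, rose by 0.75 (SE 0.14, limma adjusted p = 0.0155), with 1295 to 1466 units in dKO and 632.7 to 1026 in controls. The call of Blnk ended without dKO replicate 2 or control replicate 1 (limma adjusted p = 0.0557 and 0.0661), and with arrays centred on Actb and Gapdh (0.131). Clec7a, the receptor dectin-1, had a difference of 0.47 (SE 0.54, limma adjusted p = 0.752).

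**Figure D3:**
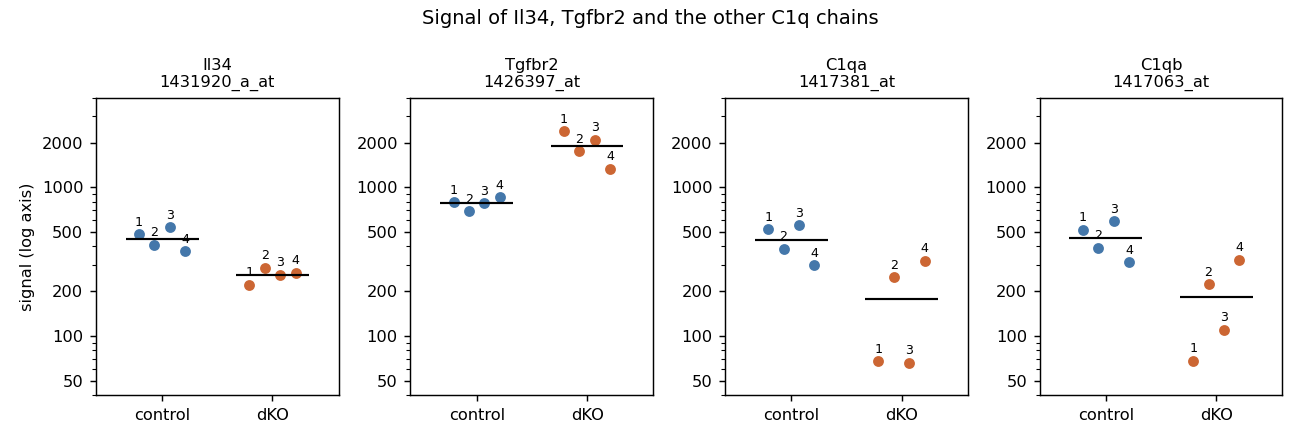
Signal (units, log axis) of Il34, Tgfbr2, C1qa and C1qb on each array, with control in blue, dKO in orange, replicate numbers beside the points and a line at the mean of 4 arrays. Il34 lies lower and Tgfbr2 higher in all 4 dKO arrays, and in C1qa and C1qb dKO replicate 4 reaches into the control range.

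Besides Ptprc, 14 of 42 symbols on a list of genes that leukocytes share had a name. Of these 4 fell, 0 rose and 10 did not pass, with a median log2 difference of -1.42. Lcp1, an actin-bundling protein of leukocytes, fell 2.83-fold (log2 SE 0.34) and Coro1a, an actin regulator, by 1.33 on the log2 scale (SE 0.27), with limma adjusted p of 0.0390 and 0.0247. Alox5ap, which helps make leukotrienes, fell by 0.94 and Lsp1, a leukocyte cytoskeletal protein, by 0.81 (limma adjusted p = 0.0256 and 0.0496). Cd52, a leukocyte surface glycopeptide, had a difference of -2.36 (SE 0.59, limma adjusted p = 0.0610), with 16.5 units in dKO replicate 1, 89.3 to 190.5 in the other dKO arrays and 367.1 to 477.3 in controls. Of these genes 12 of 14 had every dKO array below every control, beside 70.6% of the authors' entries with a ratio under 1, from which all 14 come. The 4 of 14 that fell compare with 38.7% of those entries. With 1 array left out, the count of 4 became 0 for dKO replicate 3 and for controls 1 and 2, 1 for control 3 and 2 for dKO replicate 2, and without both arrays numbered 4 it was 7.

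**Figure D4:**
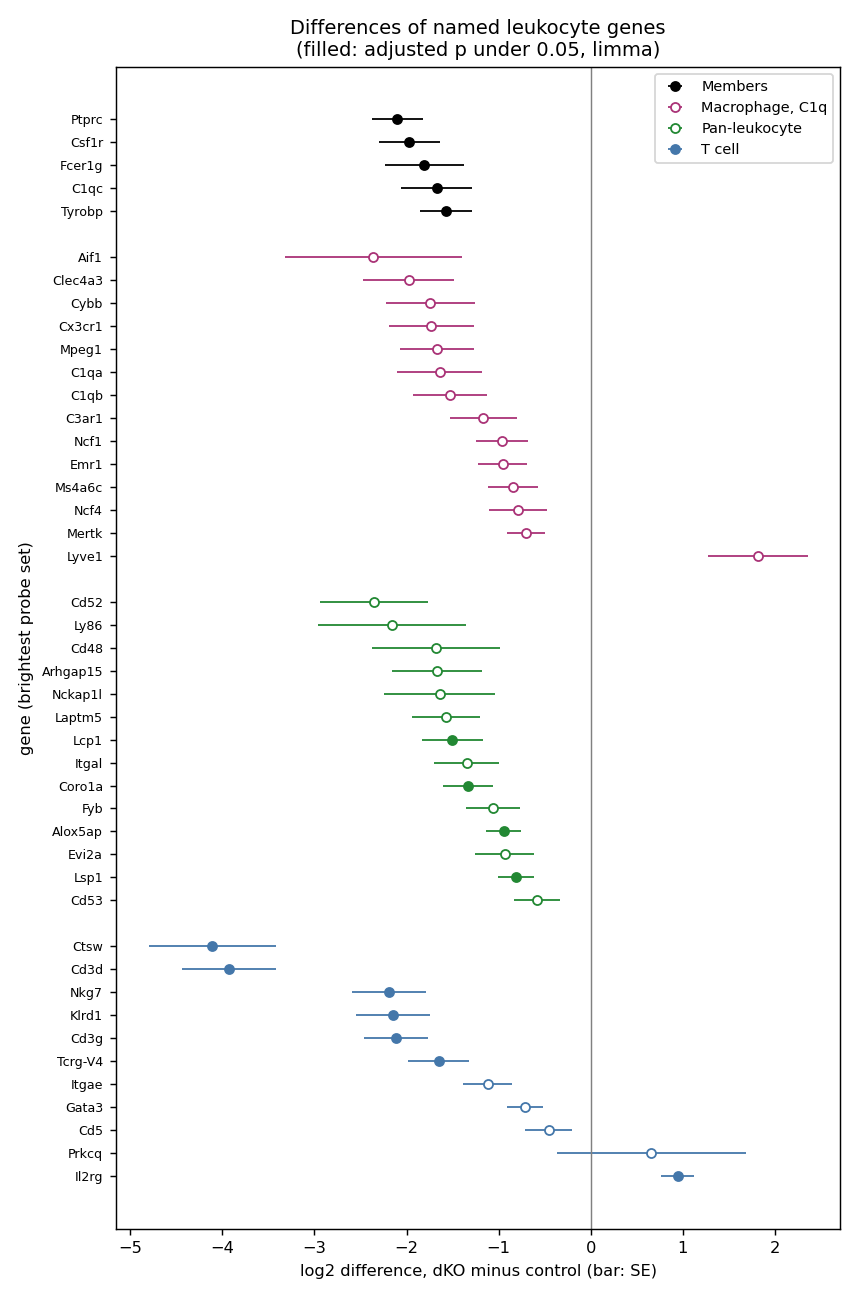
Log2 difference of dKO minus control (points, with SE bars) for the 5 members and the named macrophage, pan-leukocyte and T cell genes, filled where the limma adjusted p was under 0.05. The members lie between -2.10 and -1.57, and of the 14 other macrophage genes none is filled.

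The named T cell genes were set against the members in each array. Cd3d, a chain of the T cell receptor complex, read 2.9 to 5.4 units in dKO and 40.7 to 87.6 in controls. The T cell list held 51 symbols, of which 11 had a name. Of these 11 named T cell genes 6 fell, Il2rg rose and 4 did not pass. All 11 come from the authors' table, in which 38.7% of the entries with a ratio under 1 fell, beside 1.25% of all probe sets. Every dKO array lay below every control in 7 of the 9 T cell genes with a lower mean, beside 70.6% of those entries. The number that fell was 2, 3 and 4 without control replicates 1, 2 and 3, and 4 with the replicate block, and it was 5 to 8 without any other single array. Averaged over these 11 genes and set against the control mean, dKO replicates 1 to 4 stood at -1.72, -1.71, -1.32 and -1.37. The list holds Gata3 and Il2rg, which were bright in these samples and are not limited to T cells. Replicates 1 and 3 both lay below 2 and 4 in 2 of 11 T cell genes, in 10 of 14 macrophage genes and in 11 of 14 pan-leukocyte genes. The mean change of the members minus that of the T cell genes was -0.30 (SE 0.43), less than its standard error. With 32 units added to each signal this difference was -0.79, and without dKO replicate 1 it was -0.05.

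**Figure D5:**
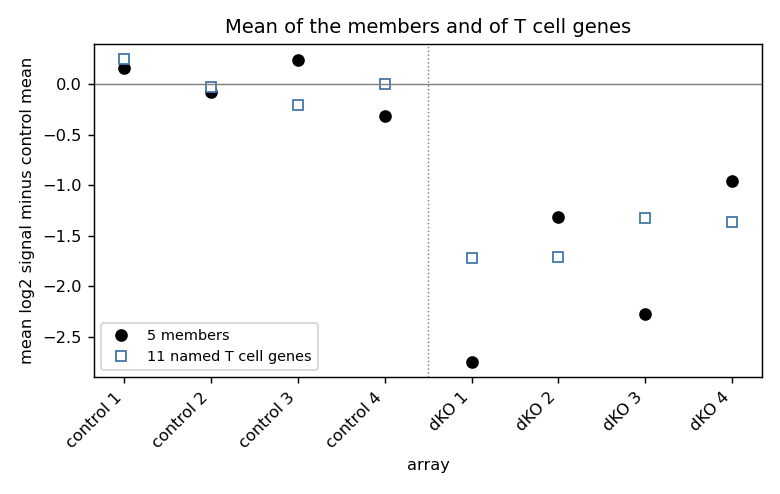
Mean log2 signal minus the control mean for the 5 members (filled circles) and 11 named T cell genes (open squares) on each array. Among dKO arrays the members range from -2.74 to -0.96 and the T cell genes from -1.72 to -1.32.

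Genes with a pattern most like the members were ranked by the root mean square distance of their centred log2 signals over the 8 arrays from the mean of the 5 members. The 1213 candidates were named genes whose mean level was not under the array's median, and their median distance was 0.88. The members themselves lay at 0.11 (Csf1r) to 0.29 (Ptprc). Each member is part of the mean it is measured against, which shortens its distance, so these values are not comparable with those of the candidates. The nearest were Gjb5, a connexin of the epidermis (0.22), C1qb (0.22), Lcp1 (0.24) and Laptm5, a lysosomal protein of leukocytes (0.27). Eif2c4 (current symbol Ago4, an Argonaute protein), C1qa, the ferroxidase Heph and the chaperone-like Hspa12a followed at 0.29 to 0.34. Gjb5 fell by 2.03 (SE 0.29, limma adjusted p = 0.00452), and Laptm5 had a difference of -1.57 (SE 0.37) that missed the threshold with an adjusted p of 0.05001. Thus 4 of the 8 were leukocyte or C1q genes of the lists above. The distance uses the group difference as well as the spread within groups, and the authors had picked all candidates from these arrays.

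Genes through which keratinocytes signal to leukocytes mostly ran the other way. Of 13 named, 7 rose, Il34 fell and 5 did not pass. All 13 were named only through the authors' table of changed transcripts, which favours calls. The share called higher among its entries with a ratio over 1 was not computed. Over all probe sets, which were not selected in this way, it was 0.993%. The number that rose was 5 to 10 with 1 array left out and 2 without the intensity trend. Ccl20, which draws cells that carry the receptor CCR6, Langerhans cell precursors among them, read 358.3, 1003, 717.9 and 530.1 units in dKO and 19.0, 3.9, 4.7 and 9.2 in controls (limma adjusted p = 0.000224). Cxcl14, a chemokine that epidermis makes steadily, rose by 0.67 (SE 0.11, limma adjusted p = 0.00973), with 5034 to 5943 units in dKO and 2968 to 3910 in controls, a call that ended with arrays centred on Actb and Gapdh (limma adjusted p = 0.131). Il15, a cytokine that supports epidermal T cells, had a difference of -1.20 (SE 0.32, limma adjusted p = 0.0756), with 30.3 to 80.9 units in dKO and 96.9 to 144.6 in controls and no overlap.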

How the data were processed

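Per the labels' protocols, total RNA of 8 epidermis samples was hybridised to Affymetrix 430-2.0 arrays. The authors deposited 1 linear intensity per probe set and array, per the labels, and the submitters' processing notes mention MAS5 and Partek without saying what each did. Every array had the same 2% trimmed mean of 250, as checked on the values. The authors' deposited table gives, per the file headers, a signed fold change, the ratio behind it (knockout over control), an F statistic used as a score and an unadjusted p-value for 2007 probe sets, each with an absolute fold of at least 1.5. How it was normalized was not given in the sources used here. Gene names come from that table alone, and 1334 of its 1396 single symbols were found in RefSeq.

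Left out were 64 control probe sets and 5 with a signal of 0. The remaining 45032 were converted to log2 and fitted with limma 3.58.1 in R 4.3.3 by lmFit on genotype alone. The eBayes step let the prior variance follow the mean signal, with Benjamini-Hochberg adjustment over all of them. An adjusted p under 0.05 counts as changed. A gene is represented by its probe set with the highest mean log2 signal. The procedure was tested on simulated data. The members and lists were chosen with earlier results of these data known. The named genes are all members, every named gene of the leukocyte, myeloid and keratinocyte signal lists, up to 4 of each other list and the 8 nearest in pattern, from which the text gives those it describes. Ratios of 2 members were tested by exact permutation over 70 assignments of arrays. The planned test of members against T cell genes is given as a value without a p, since it is a score over the members. Same-numbered arrays did not deviate together (correlations of -0.088 to 0.043 between dKO and control), so the numbers were not taken as pairs. The number of arrays limits the precision, and detection calls were not used here. The alternatives were other variance models, scalings, an offset of 32, filters, each array left out and the replicate number as a block.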

Additional observations from a re-analysis of the deposited data

Results flagged for a closer look

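A single array stood apart from the other 3 of its group for 11 of the 182 groups of 4 arrays that were checked, where chance gives about 9.1. Of these, 6 were low values of dKO replicate 1. They were the second Csf1r probe set (67.6 units, against 130.3 to 147.5 in the other dKO arrays), Aif1 (1.0, against 25.9 to 44.0), Cx3cr1 (17.9, against 86.0 to 96.3), Igh-6 (2.8, against 18.9 to 27.6), Krt77 (2093, against 6783 to 7570) and Hspa12a (30.0, against 71.3 to 83.7). Replicate 4 of dKO stood apart low for Nckap1l (4.7, against 27.6 to 37.8) and Il1f6 (1974, against 3151 to 3450) and high for Gata3 (1510, against 757.0 to 824.6). Among controls, replicate 4 was low for Nckap1l (41.1, against 71.0 to 78.9) and replicate 2 for Il2rg (178.8, against 253.2 to 266.8). Igh-6 is the file's name for the immunoglobulin heavy chain mu and was the single named B cell gene.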

How the results depend on the processing

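The direction of all 7 member probe sets held under the 18 alternatives, and the calls often did not. Without the intensity trend 60 of 45032 probe sets passed in place of 1012, and none of the members and 1 of the T cell genes did. The members' log2 differences were as before, -2.10 for Ptprc, -1.97 and -1.29 for Csf1r, -1.57 for Tyrobp, -1.81 for Fcer1g and -1.67 for C1qc. In the same order the limma adjusted p was 0.0729, 0.139, 0.151, 0.142, 0.232 and 0.224. All 5 genes had an unadjusted p under 0.05 in that fit, which their selection from the authors' table had nearly fixed. In the main fit 94.6% of its entries with a ratio under 1 had such a p and a lower level. The number of all probe sets that passed was 577 with arrays centred on Actb and Gapdh and 1525 without both arrays numbered 4. With 1 array left out it ran from 353 to 1417, at 353 without control replicate 1, 431 without control replicate 2, 438 without dKO replicate 3, 508 without dKO replicate 2 and 529 without control replicate 3. Robust variance ended the calls of Fcer1g and C1qc (adjusted p = 0.0656 and 0.0569), as did quantile normalization (log2 differences -1.70 and -1.57), 32 added (-1.34 and -1.32) and the replicate block (-1.81 and -1.67). With 1 array left out, log2 differences ran from -2.27 to -1.81 for Ptprc, -2.27 to -1.68 and -1.41 to -1.03 for the first and second Csf1r probe sets, -1.81 to -1.32 for Tyrobp, -2.15 to -1.40 for Fcer1g and -2.05 to -1.37 for C1qc. The second Csf1r probe set missed the threshold without control replicates 1, 2 or 3 (limma adjusted p = 0.0731, 0.0530 and 0.0668). The replicate block left 698 calls. The cause was not tested. Centring arrays on their medians moved the median of all probe sets from -0.07 to 0.06 and the share of lower among called probe sets from 55.8% to 34.7%, and all 5 genes passed. That share was 68.5% with Actb and Gapdh centring. Averaging the 3 Csf1r probe sets turned the difference in its ratio over C1qc from -0.30 to 0.32. There was no call either way, and the adjusted permutation test of these ratios could hardly give one. The same averaging turned Csf1r over Tyrobp from -0.40 to 0.22 and Csf1r over Fcer1g from -0.16 to 0.46. It moved Ptprc over Csf1r from -0.13 to -0.75, while 32 added turned that difference to 0.21, again without calls. Of the other genes, Prkcq changed sign, with a range of -0.067 to 1.44 over fits with 1 array left out and its negative value without dKO replicate 1, and among alternatives for these genes 130 lost a call and 53 gained one. Signals have no detection call, so differences of genes near background rest on dim values.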
